A study of Mus musculus with 9 samples.

Results

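Genes that handle retinoids in skin were followed in mouse ears: Lrat, Rdh10, Dhrs9, Aldh1a1, Aldh1a2, Aldh1a3, Crabp1, Crabp2 and Cyp26b1. They were chosen by name for their known roles in retinoid binding, synthesis and breakdown, and are 9 of the 54838 genes in the count tables. RNA of C57BL/6 mice aged 10 weeks was measured with 3' tag RNA-Seq, a method that sequences only a stretch close to the 3' end of every transcript. The first group was Mdl-1-/- mice given 15 µg of minicircle (MC) DNA coding for interleukin 23 (IL-23), a cytokine that drives psoriasis-like skin inflammation. The second was wild-type (WT) mice given the same IL-23 MC DNA, and the third was WT mice given GFP MC DNA, which codes for green fluorescent protein. The DNA entered by hydrodynamic tail vein injection in all 3 groups, and each group had 3 libraries. No Mdl-1-/- mice with GFP DNA were analysed here, so the effect of the genotype without IL-23 was not measured. The labels do not say that the libraries of a group came from separate animals, so the p-values speak of the spread among these libraries, which may be technical.

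Retinol, or vitamin A, is stored in cells as retinyl esters, which lecithin retinol acyltransferase (LRAT) makes. Retinol dehydrogenases such as RDH10 and DHRS9 oxidise retinol to retinal, and the retinal dehydrogenases ALDH1A1, ALDH1A2 and ALDH1A3 oxidise retinal to all-trans retinoic acid. The binding proteins CRABP1 and CRABP2 carry retinoic acid in the cell, CRABP2 handing it to nuclear retinoic acid receptors, and CYP26B1 hydroxylates it for removal. In epidermis retinoic acid is known to act on keratinocyte growth and differentiation and on sebaceous glands.

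Promoter windows from RefSeq, on GRCm38.p6, run from 250 bases before to 50 after a gene's start and were found for 6 of the 9 genes. Those of Dhrs9 and Aldh1a1 are shown because these 2 genes were called in opposite directions against WT GFP in IL-23 ears of both genotypes. Capitals mark matches, on either strand, to the core motif of retinoic acid receptors, AGGTCA, and to the AP-1 motif TGACTCA. Aldh1a1 has 2 annotated starts, so 2 windows are given. All 3 windows lie on the plus strand, at chr2:69380212-69380511 for Dhrs9 and at chr19:20492333-20492632 and chr19:20601718-20602017 for Aldh1a1.
Dhrs9: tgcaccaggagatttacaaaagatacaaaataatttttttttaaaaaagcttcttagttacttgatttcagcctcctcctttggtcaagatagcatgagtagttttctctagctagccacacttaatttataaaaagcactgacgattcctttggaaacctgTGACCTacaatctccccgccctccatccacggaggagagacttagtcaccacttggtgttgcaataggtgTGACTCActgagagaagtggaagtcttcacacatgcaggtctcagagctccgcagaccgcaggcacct
Aldh1a1 start 1: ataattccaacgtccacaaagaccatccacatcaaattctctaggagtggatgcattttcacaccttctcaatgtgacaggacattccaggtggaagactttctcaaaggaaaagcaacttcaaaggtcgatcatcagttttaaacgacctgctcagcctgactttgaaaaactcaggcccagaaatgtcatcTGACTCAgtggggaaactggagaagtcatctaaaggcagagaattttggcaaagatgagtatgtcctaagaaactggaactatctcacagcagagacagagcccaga
Aldh1a1 start 2: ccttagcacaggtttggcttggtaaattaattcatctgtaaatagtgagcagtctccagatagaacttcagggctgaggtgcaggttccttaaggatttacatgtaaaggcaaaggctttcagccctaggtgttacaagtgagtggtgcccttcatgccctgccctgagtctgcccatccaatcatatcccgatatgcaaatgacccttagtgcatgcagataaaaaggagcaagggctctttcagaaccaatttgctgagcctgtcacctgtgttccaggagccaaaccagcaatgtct
The Dhrs9 window held AGGTCA on the minus strand, beginning at position -88 from the start, and TGACTCA at position -18. The first Aldh1a1 window held TGACTCA at position -57, and the second held no match to either motif. The windows of Aldh1a2, Crabp1, Cyp26b1 and Lrat held neither motif. Among 32851 promoter windows of this length, 16.26% held AGGTCA and 5.2% held TGACTCA. The STAT motif TTCCNGGAA, searched as well, was in 1.15% of windows and in none of the 6. A match is a run of letters and not a measured binding site. Aldh1a3, Crabp2 and Rdh10 had no entry.

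Library totals ran from 3776188 to 5605713 counts. A count of 0 was taken to allow up to 3 counts, counting error only. On these raw totals that is 0.535 CPM (counts scaled to a common library total) in the deepest library and 0.794 CPM in the shallowest. On the scale of the values below, 3 counts were 0.464 CPM in the deepest library, for Dhrs9, and 0.992 CPM in the shallowest, for Rara. Mdl-1 is the gene Clec5a, which had 10, 13 and 5 counts in Mdl-1-/- IL-23 libraries, 17, 21 and 11 in WT IL-23 libraries and 2, 7 and 10 in WT GFP libraries. The deleted stretch of the gene is not given in the sources used here, so these 3' counts do not check the genotype. Values below are CPM scaled by the trimmed mean of M-values (TMM), with SD over n = 3, and adjusted p-values come from edgeR's quasi-likelihood test with Benjamini-Hochberg adjustment over 13807 genes. A gene was called at an adjusted p under 0.05.

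Of the 9 retinoid genes, 4 were called different in WT IL-23 ears over WT GFP ears, 3 higher and 1 lower, beside 44.7% of all tested genes. The other 5 did not pass the test or were too low for it. In WT ears Dhrs9, Aldh1a3 and Crabp2 rose 21.0-fold, 13.2-fold and 3.59-fold over GFP, and Aldh1a1 fell 3.44-fold. In Mdl-1-/- ears under IL-23, Crabp2 was 1.84-fold lower than in WT ears under IL-23, and Aldh1a3, Dhrs9 and Rdh10 had lower means without passing the test. Against WT GFP ears, Mdl-1-/- IL-23 ears had higher Dhrs9 and Crabp2, 13.6-fold and 1.95-fold, and lower Aldh1a1, 3.78-fold. These comparisons share libraries, the WT IL-23 group between the first and the second and the WT GFP group between the first and the third, so they are not independent of each other. In whole ear RNA, fewer cells of a type and less RNA per cell cannot be told apart.

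**Figure D1:**
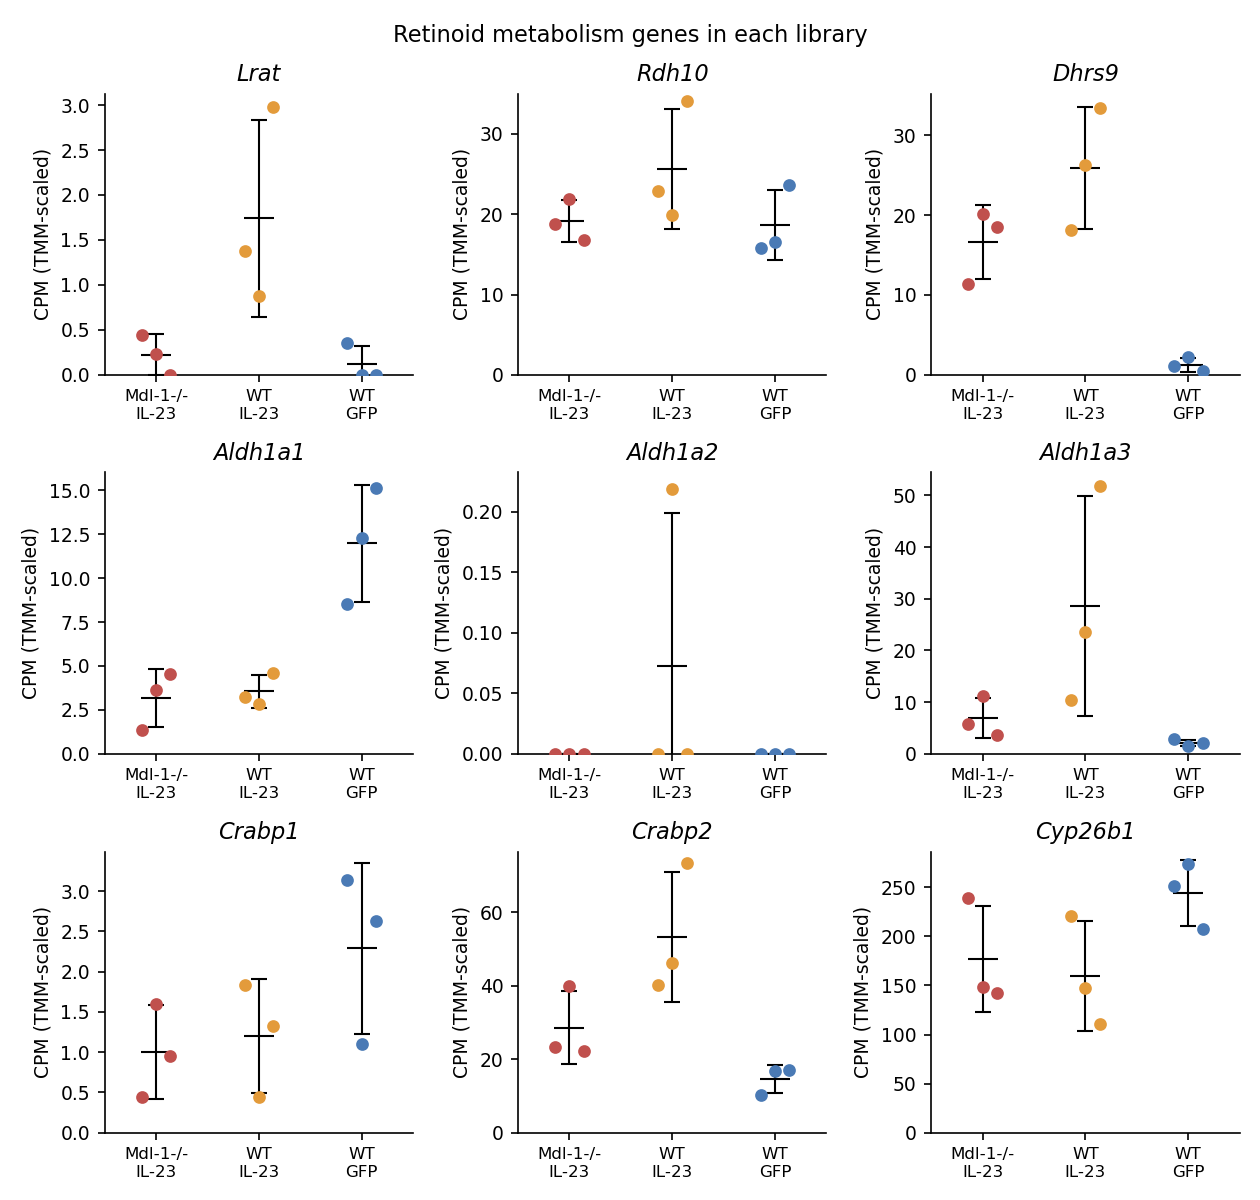
TMM-scaled CPM (y axis, linear, from 0) of the 9 retinoid genes in each library of the 3 groups (x axis). Points are libraries, the short bar is the group mean and the error bars are SD (n = 3). Dhrs9 sits between 0.464 and 2.20 CPM in WT GFP libraries and at 11.4 CPM or more in every IL-23 library of either genotype, while Aldh1a1 shows the opposite order.

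Of the 9 genes, 6 passed the filter on low counts: Rdh10, Dhrs9, Aldh1a1, Aldh1a3, Crabp2 and Cyp26b1. A gene with few counts can pass through the group in which it is high, as Dhrs9 did through the IL-23 groups, so the counts of calls below describe these genes and are not support for a shared direction. For WT IL-23 against WT GFP, 3 of the 6 were called higher and 1 lower, where 44.7% of all tested genes were called, 22.9% higher and 21.7% lower. Between Mdl-1-/- IL-23 and WT IL-23, edgeR called 0 of the 6 higher and 1 lower, where 17.7% of all tested genes were called, 7.58% higher and 10.1% lower. For that comparison the number higher was also 0 at an unadjusted p under 0.05, with DESeq2 and with limma voom, and the number lower was 2 by each of the 3, Aldh1a3 being the second. Between Mdl-1-/- IL-23 and WT GFP, 2 of the 6 were called higher and 1 lower, beside 17.1% of all tested genes, 10.2% higher and 6.93% lower.

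**Figure D2:**
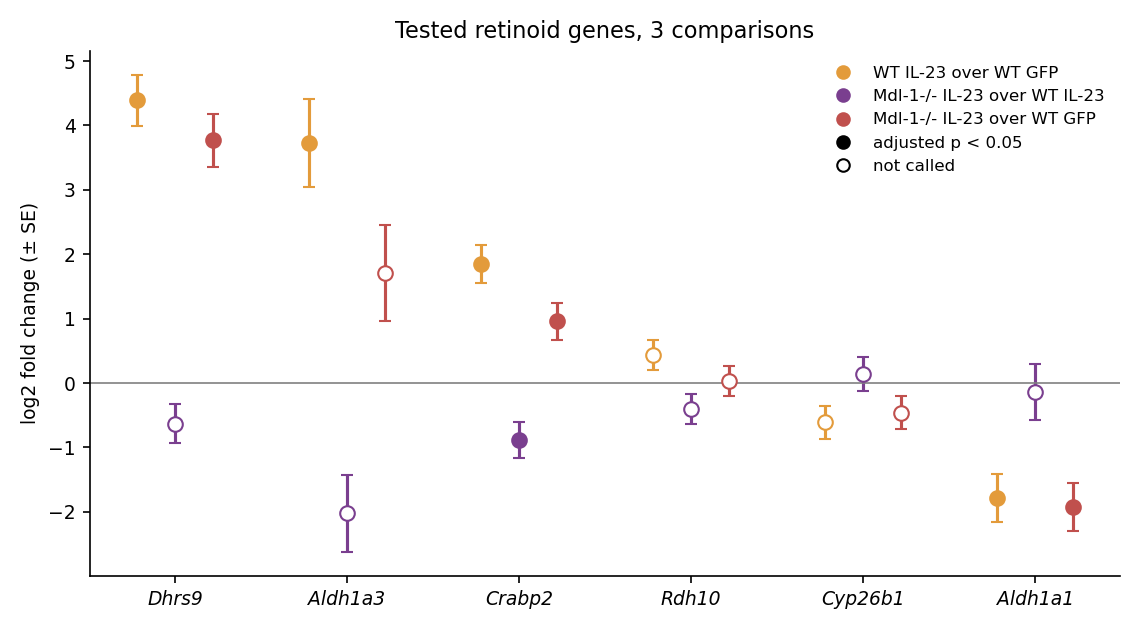
Log2 fold change (y axis) of the 6 tested retinoid genes in the 3 comparisons. Error bars are SE, filled points have an adjusted p under 0.05 and open points do not. Dhrs9 stands at 4.39 and 3.77 against WT GFP, and Aldh1a3 at -2.02 with an open point for Mdl-1-/- IL-23 over WT IL-23.

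Lrat, the enzyme of retinyl ester storage (ENSMUSG00000028003, chromosome 3 of GRCm38, 82892579 to 82903973, minus strand), was too low to be tested with the other genes. It had 2, 1 and 0 counts in Mdl-1-/- IL-23 libraries, 6, 4 and 9 counts in WT IL-23 libraries and 2, 0 and 0 counts in WT GFP libraries. Every WT IL-23 library was above every library of the other 2 groups, while the Mdl-1-/- and GFP libraries overlapped. The pooled count ratio was 14 for WT IL-23 over WT GFP (95% interval 3.38 to 124, counting error only) and 0.145 for Mdl-1-/- IL-23 over WT IL-23 (0.0275 to 0.493). A two-sided exact permutation test on CPM gave p = 0.1 for each, the smallest that 3 against 3 libraries can give. With 3 counts in Mdl-1-/- IL-23 against 2 in WT GFP, the ratio was 2.03 (0.233 to 24.4). When no filter on low counts was used, edgeR gave Lrat an adjusted p of 0.00375 for WT IL-23 over WT GFP and 0.0627 for Mdl-1-/- over WT under IL-23. With 2 counts in the GFP group and 3 in the Mdl-1-/- group, these ratios are uncertain.

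Rdh10, which makes retinal from retinol (ENSMUSG00000025921, chromosome 1, 16105774 to 16133734, plus strand), was called in none of the 3 comparisons. It had 18.8, 22 and 16.8 CPM in Mdl-1-/- IL-23 libraries, 22.9, 19.9 and 34.1 CPM in WT IL-23 libraries and 15.8, 16.5 and 23.7 CPM in WT GFP libraries. WT IL-23 library 3 was the highest, and all 3 groups overlapped. The log2 fold change was 0.44 ± 0.23 (SE) for WT IL-23 over WT GFP (edgeR adjusted p = 0.129, 95% interval -0.12 to 0.99). It was -0.40 ± 0.23 in Mdl-1-/- over WT under IL-23 (edgeR adjusted p = 0.239, interval -0.97 to 0.16). Set against WT GFP, Mdl-1-/- IL-23 was at 0.03 ± 0.23 (edgeR adjusted p = 0.935, interval -0.52 to 0.59). These intervals leave room for changes of close to 2-fold up in the first comparison and down in the second.

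Dhrs9, a dehydrogenase of the short-chain family that can also oxidise retinol (ENSMUSG00000027068, chromosome 2, 69380445 to 69404533, plus strand), had the largest fold change of the 6 tested genes. It had 11.4, 20.1 and 18.5 CPM in Mdl-1-/- IL-23 libraries, 18.1, 26.3 and 33.4 CPM in WT IL-23 libraries and 1.04, 2.20 and 0.464 CPM in WT GFP libraries. Both IL-23 groups lay wholly above the GFP libraries, which held 6, 12 and 3 counts, and the 2 IL-23 groups overlapped. The log2 fold change was 4.39 ± 0.40 for WT IL-23 over WT GFP (edgeR adjusted p = 2.04e-06) and 3.77 ± 0.41 for Mdl-1-/- IL-23 over WT GFP (edgeR adjusted p = 3.66e-05). Without WT GFP library 2 these values were 5.08 and 4.47, so the size of the fold rests on few GFP counts. Between genotypes under IL-23 the difference was -0.63 ± 0.30 (edgeR adjusted p = 0.16, interval -1.36 to 0.11). The mean was 16.7 ± 4.63 CPM in Mdl-1-/- IL-23 libraries and 25.9 ± 7.65 CPM in WT IL-23 libraries.

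Of the retinal dehydrogenases, which make retinoic acid itself, Aldh1a3 was called higher and Aldh1a1 lower in WT IL-23 over WT GFP, and Aldh1a2 was too low to compare. Aldh1a3 (ENSMUSG00000015134, chromosome 7, 66390890 to 66427517, minus strand) had 5.82, 11.2 and 3.59 CPM in Mdl-1-/- IL-23 libraries, 10.3, 23.6 and 51.9 CPM in WT IL-23 libraries and 2.78, 1.47 and 2.01 CPM in WT GFP libraries. All IL-23 libraries were above all GFP libraries, WT IL-23 library 3 was the highest by far, and Mdl-1-/- library 2 lay above WT IL-23 library 1. Aldh1a3 averaged 6.87 ± 3.92 CPM in Mdl-1-/- IL-23 libraries, 28.6 ± 21.2 CPM in WT IL-23 libraries and 2.09 ± 0.661 CPM in WT GFP libraries. The log2 fold change was 3.73 ± 0.68 for WT IL-23 over WT GFP (edgeR adjusted p = 0.00243), and 3.01 without WT IL-23 library 3.

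The genotype difference of Aldh1a3 under IL-23 did not pass the test. It was -2.02 ± 0.60 on the log2 scale (edgeR adjusted p = 0.0514, interval -3.50 to -0.54). Without WT IL-23 library 3, the highest library, it was -1.29 (edgeR adjusted p = 0.0807). It passed without Mdl-1-/- library 2 (edgeR adjusted p = 0.0329) or WT IL-23 library 1 (0.00487), and with upper-quartile scaling, DESeq2, limma voom, no low-count filter and a minimum count of 30 (0.00622 to 0.0496). It did not pass with the replicate number as a block, in the fit of 2 groups alone or without any other 1 library, and over all alternatives its adjusted p ran from 0.00487 to 0.158. Over WT GFP, Mdl-1-/- IL-23 had a log2 fold change of 1.71 ± 0.74 (edgeR adjusted p = 0.158, interval -0.12 to 3.53). That comparison passed without WT IL-23 library 1 (edgeR adjusted p = 0.0366) or library 3 (0.0259), which enter it through the shared estimate of spread, and in the fit of 2 groups alone (0.0188).

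Aldh1a1 (ENSMUSG00000053279, chromosome 19, 20492715 to 20643465, plus strand) was lower in the IL-23 libraries of both genotypes than in WT GFP libraries. It had 1.34, 3.66 and 4.55 CPM in Mdl-1-/- IL-23 libraries, 3.21, 2.85 and 4.63 CPM in WT IL-23 libraries and 8.53, 12.3 and 15.2 CPM in WT GFP libraries. Every GFP library was above every IL-23 library, and the 2 IL-23 groups overlapped. The log2 fold change was -1.78 ± 0.37 for WT IL-23 over WT GFP (edgeR adjusted p = 0.00107) and -1.92 ± 0.37 for Mdl-1-/- IL-23 over WT GFP (edgeR adjusted p = 0.00212). Between genotypes it was -0.14 ± 0.43 (edgeR adjusted p = 0.864, interval -1.19 to 0.92), which leaves room for a level more than 2-fold lower at these 6 to 19 counts a library. Of the 50-base words in the last 500 bases of its transcripts, 8.18% are shared with Aldh1a7, its close paralog. Reads of the 2 genes could thus be split by the counting, and the level of Aldh1a1 is uncertain. Of such words in Aldh1a3 transcripts, 3.08% are shared with other genes, so the counts of Aldh1a3 could be affected as well.

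Aldh1a2 (ENSMUSG00000013584, chromosome 9, 71215789 to 71296243, plus strand) had 1 count in all 9 libraries, in WT IL-23 library 2. Its expression was below what these depths can measure, and no comparison was made.

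The ratio of Aldh1a3 to Aldh1a1 counts within a library does not depend on scaling between libraries. It was 4.33, 3.06 and 0.789 in Mdl-1-/- IL-23 libraries, 3.21, 8.31 and 11.2 in WT IL-23 libraries and 0.327, 0.119 and 0.133 in WT GFP libraries. Every IL-23 library of either genotype was above every GFP library, and the 2 IL-23 groups overlapped. As the 2 transcripts differ in length and 3' sequence, only differences of this ratio between libraries can be read, not whether one enzyme's RNA exceeded the other's.

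**Figure D3:**
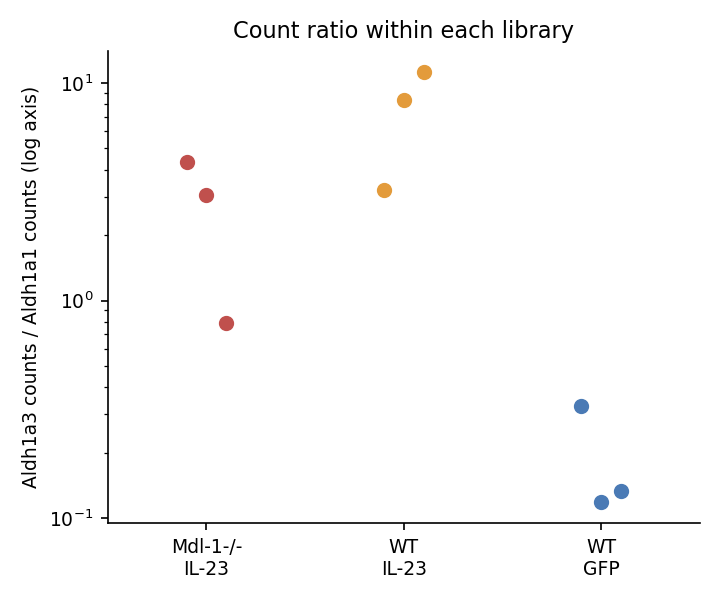
Ratio of Aldh1a3 to Aldh1a1 counts within each library (y axis, log scale) in the 3 groups (x axis). Each point is 1 library. Ratios are between 0.119 and 0.327 in WT GFP libraries and between 0.789 and 11.2 in IL-23 libraries of both genotypes.

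Of the 2 retinoic acid binding proteins, Crabp2 (ENSMUSG00000004885, chromosome 3, 87948666 to 87953376, plus strand) was called in all 3 comparisons. It had 23.5, 40.03 and 22.3 CPM in Mdl-1-/- IL-23 libraries, 40.1, 46.2 and 73.4 CPM in WT IL-23 libraries and 10.3, 16.7 and 17.0 CPM in WT GFP libraries. No 2 groups overlapped, although Mdl-1-/- library 2 and WT IL-23 library 1 were nearly equal. The log2 fold change was 1.85 ± 0.29 for WT IL-23 over WT GFP (edgeR adjusted p = 0.000287).

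The genotype difference of Crabp2 under IL-23 was -0.88 ± 0.28 on the log2 scale (edgeR adjusted p = 0.047), with means of 28.6 ± 9.92 CPM in Mdl-1-/- IL-23 libraries and 53.2 ± 17.7 CPM in WT IL-23 libraries. This call was lost without Mdl-1-/- library 1 or 3, WT IL-23 library 2 or 3, or GFP library 2 or 3, with edgeR adjusted p-values of 0.0649 to 0.171 and a log2 fold change of -0.58 without WT IL-23 library 3. It was also lost with upper-quartile scaling (0.0505) and in the fit of 2 groups alone (0.0567). Crabp2 in Mdl-1-/- IL-23 over WT GFP had a log2 fold change of 0.96 ± 0.29 (edgeR adjusted p = 0.04). That call was lost without Mdl-1-/- library 2 or any 1 of the GFP libraries, with edgeR adjusted p-values of 0.0653 to 0.165, and with upper-quartile scaling (0.0501), and the log2 fold change was 0.65 without Mdl-1-/- library 2.

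Crabp1 (ENSMUSG00000032291, chromosome 9, 54764748 to 54773110, plus strand) was too low to be tested with the other genes. It had 2, 7 and 4 counts in Mdl-1-/- IL-23 libraries, 8, 2 and 4 in WT IL-23 libraries and 18, 6 and 17 in WT GFP libraries. GFP libraries 1 and 3 were the highest of the 9, and GFP library 2 lay within the range of the IL-23 libraries. The pooled ratio was 0.504 for WT IL-23 over WT GFP (95% interval 0.254 to 0.944, counting error only) and 0.43 for Mdl-1-/- IL-23 over WT GFP (0.211 to 0.819). Exact two-sided permutation tests over libraries gave p = 0.3 and p = 0.2, where 0.1 is the smallest possible. Between genotypes under IL-23 the ratio was 0.853 (0.369 to 1.96; exact permutation p = 0.8).

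Cyp26b1, the enzyme that clears retinoic acid (ENSMUSG00000063415, chromosome 6, 84571414 to 84593908, minus strand), was read at 335 counts or more in every library. It had 239.5, 149 and 142 CPM in Mdl-1-/- IL-23 libraries, 221, 148 and 111 CPM in WT IL-23 libraries and 251, 274 and 207 CPM in WT GFP libraries. Library 1 of each IL-23 group lay within the GFP range and the other 4 IL-23 libraries lay below it. The log2 fold change was -0.61 ± 0.26 for WT IL-23 over WT GFP (edgeR adjusted p = 0.0757, interval -1.24 to 0.02). This did not pass the test. It passed without WT IL-23 library 1 (edgeR adjusted p = 0.00675, log2 fold change -0.91), without Mdl-1-/- library 1 (0.0281), and with upper-quartile scaling, DESeq2, limma voom, no low-count filter and the fit of 2 groups alone (0.000701 to 0.0493). Mdl-1-/- IL-23 over WT GFP was at -0.46 ± 0.26 (edgeR adjusted p = 0.245, interval -1.09 to 0.16), and the adjusted p was 0.0446 without Mdl-1-/- library 1 and 0.0315 with no low-count filter. With the replicate number as a block both comparisons passed, at edgeR adjusted p-values of 0.00249 and 0.031. Between genotypes under IL-23 it was 0.14 ± 0.26 (edgeR adjusted p = 0.744, interval -0.49 to 0.77).

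Within the WT IL-23 group, Cyp26b1 was lowest in library 3, where Aldh1a3, Crabp2, Dhrs9 and Rdh10 were highest. WT IL-23 library 1 had the highest Cyp26b1 and the lowest Aldh1a3, Crabp2 and Dhrs9 of its group. In Mdl-1-/- ears, library 2 was the highest for Aldh1a3, Crabp2, Dhrs9 and Rdh10, and library 1 for Cyp26b1.

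Markers of some other cell types also differed in level between these libraries. Summed over 7 neutrophil markers, all with counts, the level was 6651.8, 25937.3 and 13489.6 CPM in Mdl-1-/- IL-23 libraries, 34892.3, 46528.9 and 74209.3 CPM in WT IL-23 libraries and 336.2, 345.2 and 206.3 CPM in WT GFP libraries. The libraries highest for Aldh1a3, Crabp2 and Dhrs9 in each IL-23 group, WT library 3 and Mdl-1-/- library 2, were also the highest of their group for this sum. Most of it is S100a8 and S100a9, which stressed keratinocytes express too. Without these genes, left out after their values were seen, the other 5 markers summed to 27.1, 52.4 and 29.5 CPM in Mdl-1-/- IL-23 libraries, 63.0, 55.0 and 63.5 CPM in WT IL-23 libraries and 3.7, 7.5 and 6.0 CPM in WT GFP libraries. WT IL-23 libraries 1 and 3 were then nearly equal, and Mdl-1-/- library 2 was still the highest of its group. Among the 5 neutrophil markers tested, 5 were called higher in WT IL-23 over WT GFP, beside 22.9% of all tested genes. In Mdl-1-/- over WT under IL-23, Csf3r and Retnlg were called lower, 2 of the 5, beside 10.1%. The part of this in the retinoid gene differences was not tested.

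Among epidermal markers, the 7 suprabasal keratinocyte markers summed to 17472.4 to 21735.8 CPM in Mdl-1-/- IL-23 libraries, 9041.7 to 10828.5 CPM in WT IL-23 libraries and 2978.2 to 5810.7 CPM in WT GFP libraries. Krt10 was the largest part of this sum in every library. Without it, left out after its values were seen, the other 6 summed to 4087.8 to 5318.2 CPM in Mdl-1-/- IL-23 libraries, 4717.6 to 5300.6 CPM in WT IL-23 libraries and 825.2 to 2086.8 CPM in WT GFP libraries. The 2 IL-23 groups then overlapped, and both still lay above the GFP libraries. The 7 basal keratinocyte markers summed to 7871.1 to 10496.1 CPM in Mdl-1-/- IL-23 libraries, 10661.3 to 13316.9 CPM in WT IL-23 libraries and 9373.9 to 11662.4 CPM in WT GFP libraries, and the GFP libraries overlapped both IL-23 groups. Krt14 made up most of this sum in the IL-23 libraries but not in WT GFP libraries, where it was at 3602, 5329 and 3275 CPM. It was called higher in WT IL-23 over WT GFP (log2 fold change 1.23 ± 0.18, edgeR adjusted p = 0.000102). Krt15 at -3.53 ± 0.49 and Col17a1 at -2.28 ± 0.28 were called lower (edgeR adjusted p = 0.00114 and 0.000101). Without Krt14, left out after its values were seen, the other 6 summed to 3002.6 to 4487.7 CPM in Mdl-1-/- IL-23 libraries, 1839.7 to 3449.2 CPM in WT IL-23 libraries and 5771.5 to 6579.2 CPM in WT GFP libraries, so that every GFP library was above every IL-23 library. Krt15 alone was at 2710, 3508 and 3456 CPM in WT GFP libraries, so this separation rests largely on it. It was at 1341, 607.7 and 519.7 CPM in Mdl-1-/- IL-23 libraries and 362.8, 325.6 and 149.8 CPM in WT IL-23 libraries. Between genotypes under IL-23, Krt14 was called lower at -0.69 ± 0.18 (edgeR adjusted p = 0.0175) and Col17a1 higher at 1.69 ± 0.28 (0.00365). The 8 sebaceous gland markers summed to 1809.6 to 2451.8 CPM in Mdl-1-/- IL-23 libraries, 1214.8 to 2231.6 CPM in WT IL-23 libraries and 4100.3 to 5061.9 CPM in WT GFP libraries.

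As with Aldh1a1, every GFP library was above every IL-23 library for the sebaceous sum, and 7 of its 8 genes were called lower in WT IL-23 over WT GFP, beside 21.7% of all tested genes. The 7 dermal papilla markers, of which Sox18 was at 0, summed to 75.5 to 136.6 CPM in Mdl-1-/- IL-23 libraries, 51.9 to 96.3 CPM in WT IL-23 libraries and 348.7 to 405.4 CPM in WT GFP libraries. Both sets of IL-23 libraries lay below the GFP libraries for this sum. The 7 adipocyte markers summed to 97.2 to 161.0 CPM in Mdl-1-/- IL-23 libraries, 76.0 to 181.9 CPM in WT IL-23 libraries and 334.8 to 568.8 CPM in WT GFP libraries. In the same order, the 6 cartilage markers summed to 127.7 to 180.5, 87.3 to 120.4 and 263.0 to 316.4 CPM. The 5 Schwann cell markers summed to 110.0 to 136.0, 133.6 to 171.4 and 233.2 to 260.8 CPM. All GFP libraries were thus above all IL-23 libraries for these sums too. In WT GFP libraries the largest parts of the sebaceous, dermal papilla and adipocyte sums were Scd1, Wif1 and Car3. These averaged 3569, 334.5 and 340.5 CPM. Most of the cartilage sum was Sox9, so that sum is mainly a reading of 1 gene. Sox9 averaged 134.3 CPM in Mdl-1-/- IL-23, 101 CPM in WT IL-23 and 253.2 CPM in WT GFP libraries. Acan, the next largest part, averaged 9.65, 3.73 and 24.8 CPM in the same order. The 10 dendritic and Langerhans cell markers summed to 280.2 to 381.7 CPM in Mdl-1-/- IL-23 libraries, 226.7 to 298.8 CPM in WT IL-23 libraries and 81.2 to 109.1 CPM in WT GFP libraries. For the sums of hair follicle, fibroblast, macrophage and endothelium markers, the WT IL-23 and WT GFP libraries overlapped. T cell markers summed to 78.4 to 105.7 CPM in Mdl-1-/- IL-23, 91.6 to 116.0 CPM in WT IL-23 and 43.3 to 72.0 CPM in WT GFP libraries. In the same order, skeletal muscle markers summed to 197.9 to 882.3, 416.9 to 526.1 and 717.5 to 1329.9 CPM. The part of all these markers in the fall of Aldh1a1 or in the rise of Dhrs9, Aldh1a3 and Crabp2 was not tested.

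The authors' deposited tables of their own comparisons list the 9 genes as well. In the authors' deposited table for WT IL-23 over WT GFP, 5 of the 9 had a false discovery rate under 0.05, Dhrs9 at a log2 fold change of 4.40, Aldh1a3 at 3.74, Lrat at 3.61, Crabp2 at 1.85 and Aldh1a1 at -1.77. The authors' deposited table of the 2 genotypes runs as WT over Mdl-1-/-, the other way round from the values above. It gave Aldh1a3 1.98 with a false discovery rate of 0.000959 and Crabp2 0.84 with 0.0404 in the authors' deposited table. In the authors' deposited table for Mdl-1-/- IL-23 over WT GFP, Aldh1a3 stood at 1.71 with a false discovery rate of 0.0117 and Crabp2 at 0.96 with 0.0234.

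Other genes of the retinoid pathway were taken from a list of 58, of which 37 could be tested. For WT IL-23 over WT GFP, 7 of the 37 were called higher and 13 lower, where 22.9% and 21.7% of all tested genes were. The shares of the list were 18.9% and 35.1%, and its median log2 fold change was -0.27 beside -0.04 over all tested genes. For Mdl-1-/- over WT under IL-23, 3 of the 37 (8.11%) were called higher and 8 (21.6%) lower, beside 7.58% and 10.1% of all tested genes, with a median of 0.06 beside 0.00. Of the same 37 genes in Mdl-1-/- IL-23 over WT GFP, 5 (13.5%) were called higher and 6 (16.2%) lower, beside 10.2% and 6.93%, with a median of -0.30 beside -0.02. Genes named below are those called with at least a 2-fold change, up to 10 per comparison, and the nuclear receptors; any other is named as such.

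**Figure D4:**
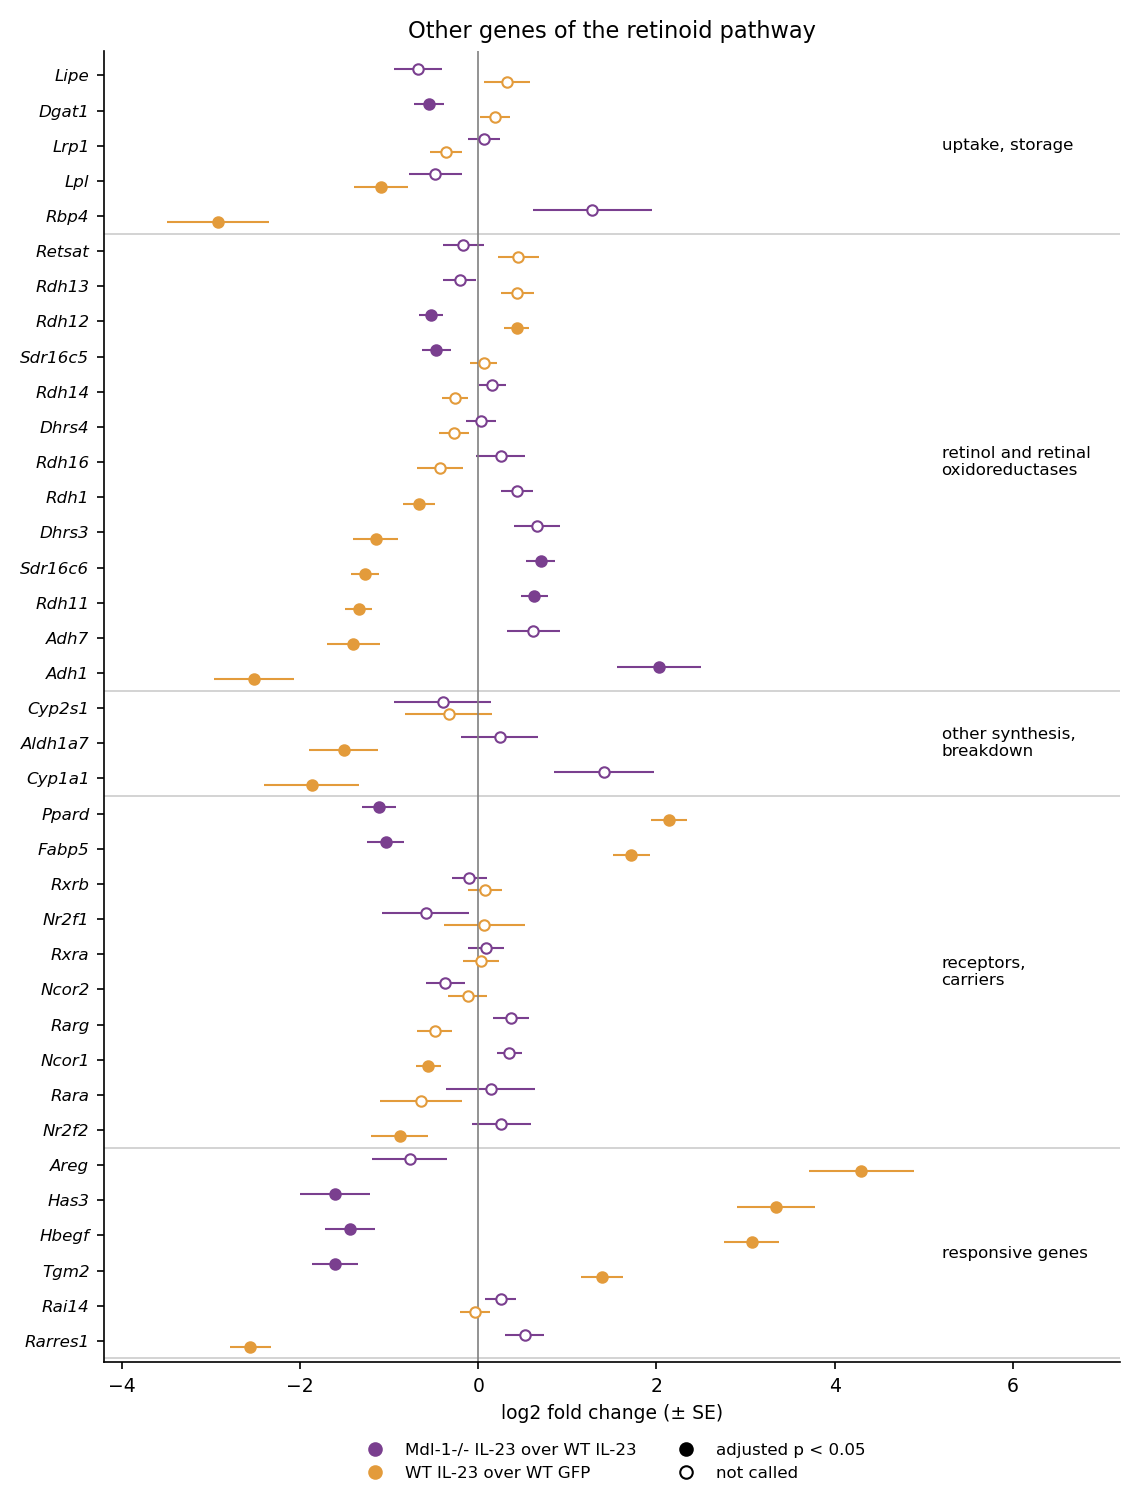
Log2 fold change (x axis, bars are SE) of the 37 other tested retinoid pathway genes, grouped by role, for Mdl-1-/- IL-23 over WT IL-23 and for WT IL-23 over WT GFP. Filled points have an adjusted p under 0.05. Areg, Has3 and Hbegf lie at 3.07 or above for WT IL-23 over WT GFP, and Rbp4 and Adh1 at -2.92 and -2.52.

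Among 5 tested genes of uptake and storage, 0 were called higher and 2 lower in WT IL-23 over WT GFP, and 0 higher and 1 lower in Mdl-1-/- over WT under IL-23. Of all tested genes, 22.9% were called higher and 21.7% lower in the first comparison and 7.58% and 10.1% in the second. By DESeq2, limma voom or edgeR's unadjusted p under 0.05, the number higher among these 5 was 0 in both comparisons as well. Rbp2, also of this list and named after its value was seen, was too low to be tested. It had 0 counts in each WT GFP library. Its counts were 4, 4 and 5 in WT ears given IL-23, and 5, 7 and 5 in Mdl-1-/- ears. With no low-count filter, edgeR put its log2 fold change over WT GFP at 5.42 in WT ears (adjusted p = 0.000817). In Mdl-1-/- ears it was 5.66 (0.000657). With 0 counts in the GFP group, the size of this rise is uncertain. The gene lower between genotypes was Dgat1, named after its value was seen, which makes triglycerides and can esterify retinol, at -0.55 ± 0.17 (edgeR adjusted p = 0.0406). That call was lost without any 1 of Mdl-1-/- libraries 1 and 3, WT IL-23 libraries 2 and 3 and GFP libraries 1 and 3 (edgeR adjusted p = 0.0588 to 0.177), with upper-quartile scaling (0.0579) and in the fit of 2 groups alone (0.0596). Rbp4, the carrier of retinol in blood, was at -2.92 ± 0.57 for WT IL-23 over WT GFP (edgeR adjusted p = 0.000764), with 0.458, 1.97 and 0 CPM in WT IL-23 libraries against 6.44, 6.98 and 7.58 CPM in WT GFP libraries. Its fold rests on 11 counts in the WT IL-23 group, and was -4.58 without library 2 of that group.

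Among 13 tested retinol and retinal oxidoreductases, 1 was called higher and 6 lower in WT IL-23 over WT GFP, and 3 higher and 2 lower in Mdl-1-/- over WT under IL-23, beside the same shares of all genes (22.9% and 21.7%, then 7.58% and 10.1%). Adh1, an alcohol dehydrogenase that also accepts retinol, had 20.6, 9.61 and 12.0 CPM in Mdl-1-/- IL-23 libraries, 5.50, 3.72 and 0.331 CPM in WT IL-23 libraries and 20.4, 18.7 and 19.95 CPM in WT GFP libraries. WT IL-23 libraries lay below all others, and the Mdl-1-/- libraries overlapped the GFP libraries. Its log2 fold change was -2.52 ± 0.45 for WT IL-23 over WT GFP (edgeR adjusted p = 0.00084) and 2.03 ± 0.47 in Mdl-1-/- over WT under IL-23 (edgeR adjusted p = 0.0131, and 0.0547 without WT IL-23 library 2). Rdh11 and Sdr16c6, outside the named 10 and named after their values were seen, were likewise lower with IL-23 in WT, at -1.34 ± 0.15 and -1.27 ± 0.16. Both were higher in Mdl-1-/- than in WT under IL-23, at 0.63 ± 0.15 and 0.70 ± 0.16. Their edgeR adjusted p-values between genotypes were 0.0107 and 0.00746, and that of Rdh11 was 0.0503 without WT IL-23 library 2. Rdh12 went the other way, at 0.43 ± 0.14 and -0.53 ± 0.14 (edgeR adjusted p = 0.0229 and 0.0207). Both Rdh12 calls were lost without WT IL-23 library 2 (0.133 and 0.124). The first was also lost with upper-quartile scaling (0.126) and without GFP library 1 or 3 (0.0867 and 0.0712). The second was also lost without Mdl-1-/- library 1 or 2 (0.0873 and 0.0548). Sdr16c5 was called between genotypes only, lower at -0.47 ± 0.16 (0.0495), and these groups overlapped. Its call was lost with upper-quartile scaling (0.0805), limma voom (0.0646), a minimum count of 30 (0.0523) and the fit of 2 groups alone (0.0738). It was also lost without any 1 Mdl-1-/- library, WT IL-23 library 2 or 3, or GFP library 1 or 3 (0.0657 to 0.227). Rdh1, Adh7 and Dhrs3 were called lower in WT IL-23 over WT GFP, at -0.66, -1.40 and -1.15, and not called between genotypes.

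Of 3 tested genes of other synthesis and breakdown steps, edgeR called 0 higher and 2 lower in WT IL-23 over WT GFP, beside 22.9% and 21.7% of all tested genes. The number higher was also 0 at an unadjusted p under 0.05, by DESeq2 and by limma voom, and the number lower was 2 by DESeq2 and 1 by limma voom. Cyp1a1, a cytochrome P450 that can hydroxylate retinoids, was at -1.87 ± 0.53 (edgeR adjusted p = 0.00931), a call that limma voom did not make (limma voom adjusted p = 0.0541). It had 2.52, 1.31 and 0.661 CPM in WT IL-23 libraries against 7.48, 2.02 and 7.73 CPM in WT GFP libraries, and the groups overlapped at GFP library 2. Aldh1a7, a close paralog of Aldh1a1 whose reads could be split with it, was at -1.51 ± 0.39 (edgeR adjusted p = 0.00593), with 7.11, 4.82 and 1.32 CPM in WT IL-23 libraries against 8.01, 15.2 and 16.2 CPM in WT GFP libraries, and these groups did not overlap.

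Of the 6 nuclear receptor genes of retinoids, 4 were tested, and edgeR, DESeq2 and limma voom called none of them in any comparison. At an unadjusted p under 0.05 edgeR had 1, Rarg, lower in WT IL-23 over WT GFP. Rarg, the main retinoic acid receptor of epidermis, had 85.0, 72.1 and 65.9 CPM in Mdl-1-/- IL-23 libraries, 73.1, 57.1 and 41.3 CPM in WT IL-23 libraries and 68.2, 100.3 and 73.9 CPM in WT GFP libraries. The groups overlapped, and the log2 fold change was -0.49 ± 0.20 for WT IL-23 over WT GFP (edgeR adjusted p = 0.0558) and 0.37 ± 0.20 in Mdl-1-/- over WT under IL-23 (edgeR adjusted p = 0.212). The first passed without WT IL-23 library 1 (edgeR adjusted p = 0.0125) or GFP library 1 (0.047), with the replicate number as a block (0.0251), and with upper-quartile scaling (0.0165), no low-count filter (0.0158) and a minimum count of 30 (0.036). Rara was at -0.64 ± 0.46, Rxra at 0.03 ± 0.20 and Rxrb at 0.08 ± 0.19 for WT IL-23 over WT GFP, with edgeR adjusted p-values of 0.275, 0.926 and 0.771. Rarb had 0 counts in every library, and Rxrg had 10, 14 and 35 counts in the Mdl-1-/- IL-23, WT IL-23 and WT GFP groups and was not tested.

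Among 10 tested receptor and carrier genes, 2 were called higher and 2 lower in WT IL-23 over WT GFP. Of all tested genes, 22.9% and 21.7% were. For Mdl-1-/- over WT under IL-23, 0 were called higher and 2 lower, beside 7.58% and 10.1%. The 2 lower in the first, named after their values were seen, were Nr2f2 and Ncor1. They were at -0.88 and -0.56 (edgeR adjusted p = 0.0348 and 0.00506). The Nr2f2 call was lost without any 1 WT IL-23 library or GFP library 1 or 3 (0.053 to 0.126). Ppard and Fabp5, the 2 called higher, belong to the other route of retinoic acid, in which FABP5 delivers it to PPAR delta. Ppard had 13.4, 15.3 and 12.9 CPM in Mdl-1-/- IL-23 libraries, 26.8, 30.4 and 33.1 CPM in WT IL-23 libraries and 6.27, 7.71 and 6.50 CPM in WT GFP libraries. The 3 groups did not overlap. Its log2 fold change was 2.14 ± 0.20 for WT IL-23 over WT GFP (edgeR adjusted p = 1.53e-06), -1.11 ± 0.19 in Mdl-1-/- over WT under IL-23 (0.00223) and 1.03 ± 0.21 in Mdl-1-/- IL-23 over WT GFP (0.00305). Fabp5 averaged 1696 ± 497 CPM in Mdl-1-/- IL-23 libraries, 3485 ± 919 CPM in WT IL-23 libraries and 1057 ± 43.1 CPM in WT GFP libraries. Its log2 fold change was 1.72 ± 0.21 for WT IL-23 over WT GFP (edgeR adjusted p = 4.48e-05) and -1.04 ± 0.21 in Mdl-1-/- over WT under IL-23 (0.00638). Fabp5 has processed copies elsewhere in the genome, so its level is uncertain.

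Of 6 tested genes listed as responsive to retinoic acid, 4 were called higher and 1 lower in WT IL-23 over WT GFP, and 0 higher and 3 lower in Mdl-1-/- over WT under IL-23 (1 higher at an unadjusted p, 0 by DESeq2 or limma voom). Of all tested genes, 22.9% and 21.7% were called in these directions in the first comparison and 7.58% and 10.1% in the second. Areg, with 2, 0 and 3 counts in WT GFP libraries, and Has3, with 5, 11 and 6, passed the filter on low counts mainly through the IL-23 groups, so these counts describe the list only. The 4 are also known to respond to other signals: Areg and Hbegf are ligands of the EGF receptor, Has3 makes hyaluronan and Tgm2 crosslinks proteins. Hbegf had 14.3, 27.2 and 19.7 CPM in Mdl-1-/- IL-23 libraries, 48.4, 41.6 and 77.7 CPM in WT IL-23 libraries and 6.27, 4.59 and 8.66 CPM in WT GFP libraries. The groups did not overlap. Its log2 fold change was 3.07 ± 0.31 for WT IL-23 over WT GFP (edgeR adjusted p = 7.84e-06), -1.44 ± 0.28 in Mdl-1-/- over WT under IL-23 (0.00534) and 1.63 ± 0.32 in Mdl-1-/- IL-23 over WT GFP (0.00371).

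Has3 was at 3.34 ± 0.44 for WT IL-23 over WT GFP (edgeR adjusted p = 2.63e-05) and at -1.61 ± 0.39 in Mdl-1-/- over WT under IL-23 (0.0109), the second lost without Mdl-1-/- library 1 or 3 or WT IL-23 library 3 (0.0504 to 0.0556). Tgm2 was at -1.61 ± 0.26 in Mdl-1-/- over WT under IL-23 (edgeR adjusted p = 0.00145), and its Mdl-1-/- libraries, at 5.59, 9.61 and 5.99 CPM, overlapped the GFP libraries, at 6.44, 9.18 and 9.13 CPM. Areg was at 4.30 ± 0.59 for WT IL-23 over WT GFP (edgeR adjusted p = 3.66e-05). Rarres1, named for its rise with retinoids in human skin, fell in WT IL-23 ears, with 122, 109 and 78.0 CPM against 617, 443 and 765 CPM in WT GFP libraries (log2 fold change -2.56 ± 0.23, edgeR adjusted p = 3.54e-06). The list of responsive genes thus held members called in both directions under IL-23.

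Besides Hbegf and Ppard, genes called with at least a 2-fold change in Mdl-1-/- IL-23 over WT GFP were Areg at 3.53, Rarres1 at -2.04, Has3 at 1.73, Rbp4 at -1.64, Lpl at -1.57 and Aldh1a7 at -1.27 on the log2 scale. The call of Rbp4 was lost without Mdl-1-/- library 2 or 3 or any 1 of the GFP libraries (edgeR adjusted p = 0.0527 to 0.127). That of Has3 was lost without Mdl-1-/- library 2 or GFP library 1 or 3 (0.0727 to 0.142) and with limma voom (0.0571), and that of Aldh1a7 without any 1 Mdl-1-/- library, WT IL-23 library 2 or GFP library 2 or 3 (0.0535 to 0.133). Areg was at 4.13 without GFP library 3, and the GFP group held 5 counts of it.

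Genes whose levels ran most like each tested retinoid gene were found by Pearson's r of log2 CPM over the 9 libraries, among 8834 genes of mean log2 CPM of at least 3. These libraries fall into 3 groups, so r also carries the differences between group means and is given as a description. It does not measure the size of a change. For Dhrs9 they were Arrdc4 (r = 0.997), Aox4 (0.994) and Gsdmc (0.994). For Crabp2 they were Stn1 (r = 0.989), Tmem33 (0.982) and Ubac2 (0.982), and for Aldh1a3 Slc4a1ap (0.977), Usp6nl (0.973) and Ube2z (0.969). Gsdmc averaged 562 CPM in Mdl-1-/- IL-23 libraries, 1570.0 CPM in WT IL-23 libraries and 13.6 CPM in WT GFP libraries. In the same order Slc4a1ap averaged 32.1, 40.7 and 29.1 CPM and Usp6nl 26.95, 30.6 and 23.8 CPM. Their changes were much smaller than that of Aldh1a3. For Aldh1a1 they were Por (r = 0.948), Usp24 (0.947) and Acp6 (0.935), for Cyp26b1 Itgb4 (0.989), Rtl8a (0.970) and Tln1 (0.967), and for Rdh10 Hist1h2bc (0.930), Ak6 (0.927) and 2310009B15Rik (0.922).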

How the data were processed

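Ear RNA of 3 groups of 3 libraries was analysed from gene count tables. The deposited tables hold raw counts per Ensembl gene, made by the authors with STAR 2.7.0a and featureCounts, per the submitters' processing notes, which also name edgeR. Those notes give the genome build as GRCh38.p6, a human name, while the gene identifiers are of mouse, so the build used is uncertain. For the annotation, strand setting and reads with several matches, the sources used here give no information. The authors' deposited comparison tables hold log2 fold changes, mean log2 CPM, p-values and false discovery rates.

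Each library stands in more than 1 table with the same values (0 differed), and the tables were joined. Symbols and positions came from GENCODE M21 on GRCm38 by identifier, and 115 genes had none. Libraries of a group differed by more than sampling noise (chi-square per gene 4.60 to 19.0).

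The test was edgeR 4.0.16 under R 4.3.3, after filterByExpr (minimum count 10, minimum total 15) and TMM scaling. All 9 libraries entered 1 fit of 3 group means, with a robust quasi-likelihood F-test (6 residual degrees of freedom), two-sided. SE and 95% intervals were derived from the F statistic. The procedure was also run on simulated data, whose outcome is not given here and is not used as support. Genes that failed the filter were given as pooled count ratios with exact intervals and exact permutation tests. Intervals cover counting error only.

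All 9 retinoid genes are named. Of the other pathway genes, the 6 nuclear receptors and up to 10 called genes per comparison with an absolute log2 fold change of at least 1 are named, largest first. The members and lists were chosen with earlier results of these data known. One pathway gene of the lists is not reported here. Alternatives were upper-quartile scaling, DESeq2 1.42.0, limma 3.58.1 voom, other count filters, a replicate block, fits of 2 groups alone and each library left out.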

Additional observations from a re-analysis of the deposited data

How the results depend on the processing

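Of 288 fold changes of the 6 tested retinoid genes under the alternatives, 279 kept their direction and 245 also their side of the threshold, 13 lost a call, 21 gained one and 9 turned in sign. All 9 that turned were within 0.24 of 0 on the log2 scale and uncalled. Dhrs9, Aldh1a3 and Crabp2 stayed called higher and Aldh1a1 lower in WT IL-23 over WT GFP under all 16 alternatives.

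For WT IL-23 over WT GFP, the retinoid genes called lower were 2 in place of 1, Cyp26b1 being the second, under upper-quartile scaling, DESeq2, limma voom, no low-count filter, the replicate block and the fit of 2 groups alone, and 1 to 2 with a library left out. For Mdl-1-/- over WT under IL-23 they were 2, with Aldh1a3 added, under DESeq2, limma voom, no filter and a minimum count of 30, 0 in the fit of 2 groups alone, and 0 to 2 with a library left out. For Mdl-1-/- IL-23 over WT GFP, those called higher were 1 under upper-quartile scaling and 1 to 3 with a library left out, and those called lower were 2 without the filter and with the replicate block and 1 to 2 with a library left out. Other pathway genes called higher for Mdl-1-/- over WT under IL-23 were 6 without the filter and 2 to 5 with a library left out, and those called lower were 4 to 8, the 4 on leaving out Mdl-1-/- library 1, and 5 on leaving out Mdl-1-/- library 3 or WT IL-23 library 2. For Mdl-1-/- IL-23 over WT GFP these were 3 to 5 higher and 3 to 7 lower. The number of all genes called ran from 1116 to 2806 for Mdl-1-/- over WT under IL-23 with a library left out, and was 1165, 1353, 1116 and 1295 without Mdl-1-/- library 1, Mdl-1-/- library 3, WT IL-23 library 2 and WT IL-23 library 3. It ran from 1328 to 2564 for Mdl-1-/- IL-23 over WT GFP, with 1354 without Mdl-1-/- library 2 and 1328 without GFP library 3. The cause of these shifts was not tested.

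The values that turned were Rdh10 in Mdl-1-/- IL-23 over WT GFP, at -0.0626 under upper-quartile scaling, at -0.0033 with a minimum count of 30 and at -0.0672 to 0.26 with a library left out. Between genotypes under IL-23, leaving out a library gave Aldh1a1 -0.46 to 0.24 and Cyp26b1 -0.14 to 0.45. Of the 858 values of other pathway genes tried, 14 turned, all of uncalled receptors. For WT IL-23 over WT GFP, Rxra was at -0.13 and Rxrb at -0.0726 under upper-quartile scaling, Rxra at -0.0284 with a minimum count of 30, and the ranges with a library left out were -0.0641 to 0.21 for Rxra and -0.12 to 0.18 for Rxrb. Between genotypes these ranges were -0.14 to 0.42 for Rara, -0.13 to 0.31 for Rxra and -0.19 to 0.11 for Rxrb. For Mdl-1-/- IL-23 over WT GFP they were -0.68 to 0.0284 for Rara, -0.23 to 0.0923 for Rarg, -0.0991 to 0.33 for Rxra and -0.044 to 0.0604 for Rxrb.

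Upper-quartile scaling moved the median log2 fold change of all genes by -0.153 for WT IL-23 over WT GFP. Under it 38.9% of called genes were higher, against 51.3% under TMM, and 53.2% against 42.9% and 43.7% against 59.4% in the comparisons of genotypes under IL-23 and of Mdl-1-/- IL-23 with WT GFP. Under this scaling the genotype call of Crabp2 had an adjusted p of 0.0505 and its call over GFP one of 0.0501, while Aldh1a3 between genotypes had 0.0496.

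The labels do not say whether a shared replicate number marks a shared animal, litter or day. Deviations from group means correlated at -0.0863 to 0.23 over 9 pairs of the same number (2 above 0.1). Over 18 pairs of different numbers they correlated at -0.214 to 0.175 (3 above 0.1). These few correlations cannot decide whether the numbers pair the libraries. With the replicate block, 6257, 2800 and 2682 genes were called for WT IL-23 over WT GFP, Mdl-1-/- over WT under IL-23 and Mdl-1-/- IL-23 over WT GFP. At 0 to 19 counts a library, Lrat, Crabp1, Aldh1a2 and Aldh1a1 in IL-23 ears are limited by depth.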
